A study of Mus musculus with 6 samples.

Results

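Microbial products are read in microglia by the Toll-like receptors, their co-receptor Cd14, the adaptor Myd88 and the cytosolic receptor Nod2, and the 10 genes Tlr1, Tlr2, Tlr3, Tlr4, Tlr7, Tlr9, Tlr13, Cd14, Myd88 and Nod2 are described here. They were chosen by gene symbol from the 48587 genes of a count table, with the counts of the same samples and their genotype comparison already known. Differences between genotypes in these 10 genes are therefore given as descriptions, with fold changes and standard errors but no test of genotype. All 10 had an entry in the table, and all 10 passed the filter on low counts that left 10394 genes.

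Microglia, the resident macrophages of the brain, had been sorted by flow cytometry from C57BL/6 mice at postnatal day 42, at about 1000 cells per sample. The wild-type group had 3 samples and the Lyl1 knockout group (genotype label "Lyl1 KO") had 3. Neither group carried another labelled allele or treatment, and the sources used here do not say how the knockout was made, which sorting gate was used or how many mice each sample came from. The protein encoded by Lyl1 binds DNA through a basic helix-loop-helix domain and is best known from blood-forming cells, and the series title ties it to microglia. The knockout samples came from more than 1 animal, since samples 1 and 3 had the female transcript Xist and sample 2 had the Y-linked Kdm5d (19.6 CPM, beside 0.0881 and 0.0696). For the wild-type group the labels leave this unstated, and the spread between its samples may be technical. Wild-type samples 1 to 3 had Kdm5d at 7.14, 155 and 15.5 CPM and almost no Xist. Sex thus differed between the groups for every gene below, and its part in the differences was not tested.

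Toll-like receptors are membrane proteins that recognise conserved molecules of microbes and of damaged cells. Those at the cell surface, Tlr1, Tlr2 and Tlr4, bind lipopeptides and lipopolysaccharide, while Tlr3, Tlr7, Tlr9 and Tlr13 sit in endosomes and bind nucleic acids. Except for Tlr3 they signal through Myd88 to NF-kB and cytokine genes, and microglia are the main cells of the brain parenchyma that carry them. Nod2 lies in the cytosol, binds muramyl dipeptide from bacterial cell walls and signals through the kinase Ripk2.

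The depth was 12753945 to 27378614 reads per sample, and 12827 to 15652 genes were detected. Wild-type samples 1 and 2 and knockout sample 1 had fewer genes detected (12827 to 13085) than wild-type sample 3 and knockout samples 2 and 3 (14923 to 15652), so each genotype stood on both sides of this difference. Lyl1 itself was at 40.0 to 60.2 CPM (the counts scaled to a common library total by TMM, which corrects for differences in library composition) in wild type and at 9.03 to 14.3 CPM in knockout. The 8 microglia markers summed to 37728 to 40526 CPM in wild-type samples and 37012 to 41180 CPM in knockout samples, with the receptor Csf1r highest. Of these, Csf1r, Tmem119, Cx3cr1, Sall1, Siglech and Gpr34 overlapped between genotypes. Fcrls was lower in every knockout sample (5469 ± 224 and 3328 ± 782 CPM, SD, n = 3 each), and P2ry12 was higher (6729 ± 330.2 and 7825 ± 944 CPM). Of the 6 monocyte markers, which include Ly6c2 and Ccr2, the sum was at most 1.50 CPM in wild-type samples and 6.91 CPM in knockout samples. The 8 neutrophil markers summed to at most 3.26 and 0.487 CPM, with S100a8, Ngp and Elane at 0 reads in every sample. The 6 dendritic cell markers summed to 130 to 165 CPM in wild-type samples and to 22.8 to 75.3 CPM in knockout samples. Bst2 led this list, except that Xcr1 (49.7 CPM) came close to Bst2 (53.5 CPM) in wild-type sample 2. The 8 border macrophage markers summed to 0.437 to 95.8 CPM in wild-type samples and 0.457 to 10.3 CPM in knockout samples, with Mrc1 highest, while Cd163, Lyve1, Cbr2, F13a1 and Clec4n had 3 reads or fewer in every sample. The 6 B cell markers summed to 959 to 1495 CPM in wild-type samples and 1066 to 1351 CPM in knockout samples, with Ighm highest. Cd79b was at 54.5 to 132 CPM over all samples, while the B cell genes Ms4a1 and Pax5 did not pass 3 reads in any. The 6 T and NK cell markers were also at 3 reads or fewer throughout. The erythroid markers summed to 0.243 to 227 CPM in knockout, led by Hbb-bs, and to at most 1.23 CPM in wild type. Among lists of other brain cells, the genes with the highest mean over all 6 samples were Slc1a3 (astrocytes), Mag (oligodendrocytes), Pecam1 (endothelial cells) and Rbfox3 (neurons), with group means of 329, 84.9, 72.6 and 0 CPM in wild-type samples and 219, 30.2, 40.9 and 2.44 CPM in knockout samples. The defining astrocyte gene Gfap and the endothelial gene Cldn5 had 0 reads in every sample. The part of these cells in the results below was not tested. In sorted bulk samples, fewer cells of a type and less RNA per cell cannot be told apart.

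Cd14, the co-receptor that hands lipopolysaccharide to Tlr4, was the most abundant of the 10 in every sample. Per kilobase of exon, so that genes of different length can be set side by side, its level was 362 ± 55.6 CPM per kilobase in wild type and 412 ± 86.9 CPM per kilobase in knockout (SD, n = 3 each). It stood above 99.6% of genes with a read and made up 56.3% to 68.6% of the summed per-length level of the 10 genes in each sample. Tlr2 came next in both genotypes, at 77.7 ± 22.0 and 62.7 ± 15.6 CPM per kilobase, and its samples did not reach those of Cd14. Myd88 and Tlr7 followed, at 64.3 ± 29.2 and 36.7 ± 7.52 CPM per kilobase in wild type. From Tlr2 down to Nod2, each neighbour in the wild-type order overlapped the next in its samples, so that only the first place of Cd14 was clear of the spread.

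In knockout the first 4 places in per-length level were the same. Tlr13 was the fifth, at 37.9 ± 4.18 CPM per kilobase, after being the sixth in wild type at 12.5 ± 5.35. Tlr1 moved from the fifth place (22.9 ± 12.7) to the eighth (15.2 ± 3.83), and Nod2 and Tlr9 exchanged the last 2 places. Besides Cd14 over Tlr2, the knockout samples of neighbours stayed apart at 1 step, Tlr1 over Nod2. With the length of the longest transcript in place of all exons, every gene kept its place in both genotypes.

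**Figure D1:**
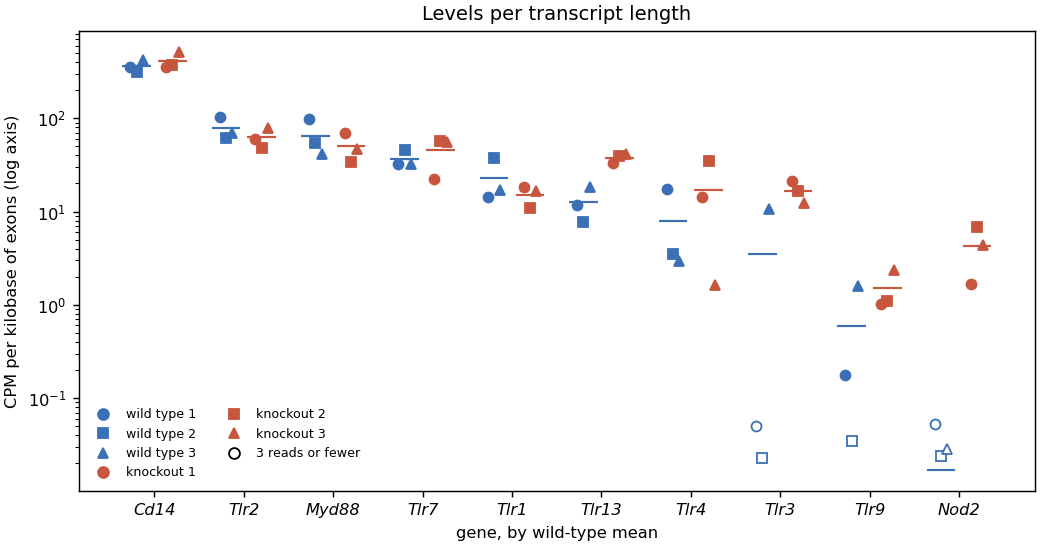
Level of each gene in CPM per kilobase of exon on a log axis, ordered by the wild-type mean, with wild-type samples in blue and knockout samples in red, symbols for samples 1 to 3 and lines for group means. Cd14 lies clear of all others, and open symbols stand for samples with 3 reads or fewer, drawn at the level of 3 reads.

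Across the 10394 tested genes, edgeR's quasi-likelihood test called 0 genes at an adjusted p under 0.05 (0% of those tested). The limma-voom test also called 0, while DESeq2 called 52 of these genes, and 137 when all genes with a read were entered. Lyl1 itself, lower in every knockout sample with a log2 fold change of -2.14 (standard error 0.98), was not called by edgeR. A gene that is not called may therefore still differ. At an unadjusted p under 0.05 edgeR gave 121 higher genes (1.16%) and 174 lower genes (1.67%), a balance that turned to 133 higher and 99 lower with upper-quartile scaling and to 139 and 124 with library size alone. Of the 10 genes, 7 had a positive log2 fold change and 3, Tlr1, Tlr2 and Myd88, a negative one. Their median was 0.70, beside -0.03 over all tested genes. The 3 knockout samples all lay above the 3 wild-type samples for 3 of the 10 (Tlr3, Tlr13 and Nod2), beside 5.97% of all tested genes, and below them for 0, beside 5.19%. Because the same comparison was known when the genes were chosen, nothing is read from these counts.

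**Figure D2:**
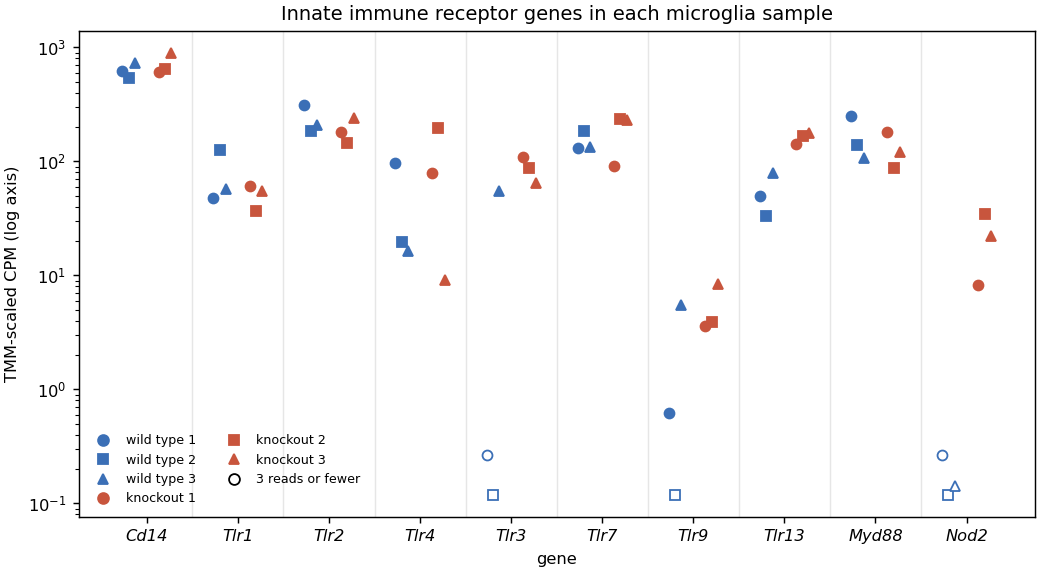
TMM-scaled CPM of each gene in each of the 6 samples on a log axis, with wild type in blue and knockout in red. Open symbols mark 3 reads or fewer and are drawn at the CPM of 3 reads in that sample, which is 0.104 to 0.264. Tlr3, Tlr13 and Nod2 have every knockout sample above every wild-type sample, and the genotypes overlap for Cd14.

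Among the surface receptors, Tlr2, which pairs with Tlr1 or Tlr6 to bind bacterial lipopeptides, was at 309.7, 186 and 207 CPM in wild-type samples 1 to 3 and at 183, 146 and 239 CPM in knockout samples 1 to 3. The groups overlapped, with wild-type sample 1 highest and knockout sample 2 lowest. The log2 fold change, knockout over wild type, was -0.31 (standard error 0.35). Tlr1, its partner for triacylated lipopeptides, was at 48.0, 125 and 56.7 CPM in wild-type samples and 60.9, 36.4 and 55.1 CPM in knockout. Wild-type sample 2 stood above the other 5, which overlapped. The log2 fold change of Tlr1 was -0.60 (standard error 0.68) and -0.02 without that sample. Part of the Tlr1 transcript cannot be assigned with reads of 50 bases, since 15.4% of its stretches of that length also occur in transcripts of other genes, most of them in Tlr6.

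Tlr4, the lipopolysaccharide receptor, was the least even of the 3 surface receptors. It was at 97.0, 19.5 and 16.3 CPM in wild-type samples and at 78.6, 195 and 9.08 CPM in knockout. High and low samples occurred in both genotypes, with the highest and the lowest of the 6 both in knockout. The log2 fold change of 1.09 (standard error 1.16) was 0.02 without knockout sample 2, 1.63 without knockout sample 3 and 2.41 without wild-type sample 1. The border macrophage marker Mrc1 was at 95.4, 0.318 and 20.1 CPM in wild-type samples and at 3.48, 0.152 and 10.2 CPM in knockout. Pf4 and Ms4a7, of the same marker list, were highest in wild-type sample 3, at 3.48 and 5.39 CPM. The part of border macrophages in the Tlr4 values was not tested. Within each genotype the partners of Tlr4 varied less between samples. Cd14 was at 617, 537 and 728 CPM in wild-type samples and 607, 649 and 886 CPM in knockout samples, overlapping ranges with a log2 fold change of 0.19 (standard error 0.23), which fell to 0.0004 without knockout sample 3. Ly96, which encodes MD-2, the lipopolysaccharide-binding subunit of the Tlr4 complex, was lower in every knockout sample, at 254, 133 and 101 CPM against 34.7, 83.0 and 63.7 CPM.

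The endosomal receptor Tlr13, which in mice binds a bacterial ribosomal RNA sequence, was at 50.0, 33.2 and 78.7 CPM in wild-type samples and at 143, 168 and 178 CPM in knockout. The lowest knockout sample was well above the highest wild-type sample. The means, 54.0 ± 23.0 and 163 ± 18.0 CPM (SD, n = 3 each), differed 3.02-fold, a log2 fold change of 1.60 with a standard error of 0.49. Its direction held in all 19 other settings, with values of 1.14 to 1.98. Those settings use the same samples, whose genotypes do not overlap, so a reversal was hardly possible and this is no separate evidence. Tlr13 lies on the X chromosome (GRCm38 X, 106143204 to 106160493, plus strand), and the samples differed in Xist, the RNA of the inactive X of female cells. In knockout samples 1 to 3 it was at 349, 0.203 and 412 CPM, and in wild type at 1.41 CPM or less. Knockout sample 2, with almost no Xist, had Tlr13 at 168 CPM, and with Xist as a covariate the log2 fold change was 1.64. That fit tells sex from genotype only through knockout sample 2, so it cannot settle the part of sex. All wild-type samples lacked Xist and 2 of 3 knockout samples had it. The part of sex in the Tlr13 difference, as in those of the other genes, was not tested. No exon of another annotated gene overlaps Tlr13, and none of its stretches of 50 bases occurs in another transcript.

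Tlr7, a receptor for single-stranded RNA that is also on the X chromosome (167304929 to 167330558, minus strand), did not follow Tlr13. It was at 132, 185 and 132 CPM in wild-type samples and 91.6, 235 and 229 CPM in knockout samples, where sample 1 was the lowest of all 6 and samples 2 and 3 the highest. Its log2 fold change was 0.31 (standard error 0.45). Among samples with the most genes detected it was 0.82, and among those with the fewest it was -0.80.

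Tlr3, the receptor for double-stranded RNA, was at 0.0882, 0.0795 and 54.8 CPM in wild-type samples and at 109.9, 87.3 and 64.9 CPM in knockout. In reads this was 1, 2 and 1148 against 2495, 1717 and 1866. Wild-type samples 1 and 2 thus were below 3 reads, and wild-type sample 3 came close to the lowest knockout sample. The fitted log2 fold change was 2.25 (standard error 2.03). Within the samples with the most genes detected, wild-type sample 3 against knockout samples 2 and 3, it was 0.48. Without wild-type sample 3 the wild type held only 1 and 2 reads, and the fitted value became 9.95, a number that rests on those few reads. Cross-presenting dendritic cells carry much Tlr3. Their marker Xcr1 was at 0, 49.7 and 2.38 CPM in wild-type samples 1 to 3 and at 0.626 CPM or less in the knockout samples. The part of dendritic cells in the Tlr3 reads was not tested. An antisense gene model, Gm45542, shares 381 exonic bases with Tlr3, and with a library that does not mark strand its reads cannot be told apart from those of Tlr3.

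Tlr9, the receptor for unmethylated CpG DNA, was low, at 0.617, 0.0795 and 5.48 CPM in wild-type samples and 3.57, 3.86 and 8.31 CPM in knockout samples. Only wild-type samples 1 and 2 were near the limit of detection. Its reads numbered 7, 2 and 115 against 81, 76 and 239, so that wild-type sample 3 lay inside the knockout range. A log2 fold change of 1.34 (standard error 1.82) resulted, and it was 3.93 without wild-type sample 3 and 0.15 among the samples with the most genes detected. For both Tlr3 and Tlr9 the low wild-type values were those of the 2 wild-type samples with the fewest genes detected. Knockout sample 1, a single library with about as few genes, had both transcripts. The part of gene detection in the Tlr3 and Tlr9 differences was not tested.

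Summed per length, the 4 endosomal receptors stood at 44.2, 53.2 and 62.8 CPM per kilobase in the wild-type samples and at 77.9, 114 and 112 in the knockout samples. The 3 surface receptors stood at 135, 103 and 88.6 in the wild-type samples and 92.9, 94.4 and 97.3 in knockout. The endosomal sums did not overlap between genotypes, with Tlr13, Tlr3 and Tlr7 making up nearly all of them, while the surface sums overlapped. These sums follow the genes already described and are no separate evidence.

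Nod2 was all but absent from wild type and present in every knockout sample. It had 2, 2 and 0 reads in wild-type samples 1 to 3, which is under the 3 reads that a count of 0 allows, and 188, 678 and 637 reads in knockout samples 1 to 3. In CPM the knockout samples were at 8.28, 34.5 and 22.2, with knockout sample 1 lowest. The fitted log2 fold change was 7.95 (standard error 2.33), a number that rests on the 4 reads of the wild type. Pooled over samples, 1503 reads stood against 4, a ratio of 304 with a 95% exact (Clopper-Pearson) interval of 118 to 1116 that covers counting error only. That interval leaves out the spread between samples, and PCR copies counted as separate reads make it too narrow. The level stayed low beside the other receptors, at 4.31 ± 2.61 CPM per kilobase in knockout, below every knockout sample of Tlr1. No annotated gene overlaps Nod2 (ENSMUSG00000055994.15, chromosome 8, 88647315 to 88688474, plus strand, 14 merged exons), and 0.259% of its stretches of 50 bases occur in another transcript. Lyl1 lies on chromosome 8 too, and the part of DNA linked to the knockout allele in the Nod2 reads was not tested. Monocytes also make Nod2. Their marker Ccr2 was at 6.82, 0.152 and 3.23 CPM in knockout samples 1 to 3 and at 0.0882 CPM or less in wild type, and Ly6c2 was at 0.174 CPM or less in knockout. The globin Hbb-bs was at 127, 38.2 and 0.0348 CPM in those samples and at 0.705 CPM or less in wild type. The part of monocytes and of erythroid RNA in the Nod2 reads was not tested.

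Nod1, the related receptor for another peptidoglycan fragment, was at 46.5, 0 and 53.1 CPM in wild-type samples and 12.4, 0.356 and 5.81 CPM in knockout samples. Ripk2, the kinase downstream of both, was at 9.43, 0 and 82.1 CPM against 0.0881, 0.762 and 39.6 CPM. Both genes had samples without reads or nearly so in each genotype, and 2 of the 3 knockout samples with Nod2 were under 1 CPM of Ripk2.

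Promoter sequence is shown for Nod2 and Tlr13, whose genotypes did not overlap and whose windows reach upstream of every annotated start of the gene. RefSeq (GRCm38.p6) gave a window before the start site for 7 of the 10 genes, and the parts printed, 5′ to 3′ on the plus strand, stop before the first GENCODE start. They are chr8:88647097-88647314 for Nod2 and chrX:106143025-106143203 for Tlr13. Capitals mark E-boxes (CANNTG, the site type of basic helix-loop-helix factors such as Lyl1) and the purine-rich box of ETS factors such as PU.1 (GAGGAA), on either strand.
Nod2: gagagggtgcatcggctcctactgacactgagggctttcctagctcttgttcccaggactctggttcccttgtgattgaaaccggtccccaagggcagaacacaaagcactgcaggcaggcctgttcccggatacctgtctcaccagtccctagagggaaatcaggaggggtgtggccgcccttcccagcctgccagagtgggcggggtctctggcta
Tlr13: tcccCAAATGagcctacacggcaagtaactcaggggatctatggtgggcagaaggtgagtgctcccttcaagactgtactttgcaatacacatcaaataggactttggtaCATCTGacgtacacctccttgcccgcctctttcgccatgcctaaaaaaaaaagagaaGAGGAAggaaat
The Tlr13 stretch held 2 E-boxes and 1 GAGGAA box, and the Nod2 stretch held neither. In the 250 bases before the start, an E-box was found for 5 of the 7 genes (Myd88, Tlr1, Tlr2, Tlr9 and Tlr13), and 66.2% of all 32851 such windows held one. GAGGAA was found for 3 of the 7 (Tlr1, Tlr9 and Tlr13) beside 23.3% of all windows. The site of erythroid GATA factors, AGATAA, was found for Tlr3 and Tlr9 beside 9.99%. CAGNTG, a subset of the E-boxes, was found for the same 5 genes beside 44.8% of windows. A match is no evidence of binding, and no binding was measured here.

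Myd88, the adaptor shared by all these Toll-like receptors but Tlr3, was at 250.4, 140.3 and 106 CPM in wild-type samples and 180.3, 88.2 and 119.5 CPM in knockout samples. The groups overlapped, with a log2 fold change of -0.36 (standard error 0.48) that was 0.08 without wild-type sample 1, the highest. Acaa1a on the opposite strand shares 290 exonic bases with Myd88, and reads from these bases cannot be told apart without strand.

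**Figure D3:**
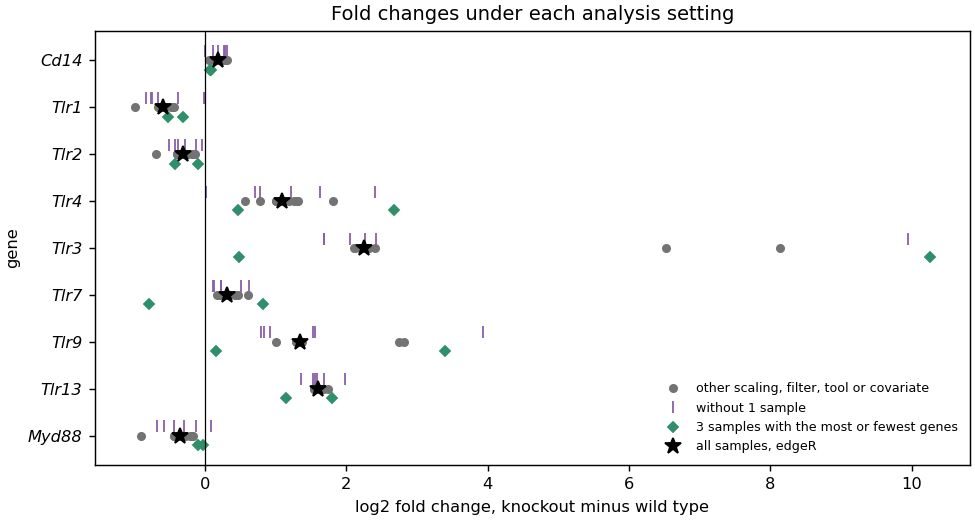
Log2 fold change, knockout minus wild type, of 9 genes under each analysis setting, with the value from all samples as a star. Nod2 is left out because its wild-type counts are at the limit of detection. Tlr13 keeps values of 1.14 to 1.98, Tlr3, Tlr4 and Tlr9 spread widely as single samples are left out, and Tlr7 and Myd88 each cross 0 in 1 setting.

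By a fixed rule, the gene with the most similar pattern was sought for each of the 8 genes at 20 CPM or more, among 3518 other genes at 50 CPM or more, by Pearson's r of log2(CPM + 1) over the 6 samples. The nearest were Bhlhe41 for Tlr1 (r = 0.998), Gpn1 for Tlr3 (0.995), Garnl3 for Myd88 (0.986), Mettl17 for Tlr4 (0.985), Cyth4 for Tlr13 (0.981), Creb3 for Tlr2 (0.973), Abl1 for Cd14 (0.953) and Trib1 for Tlr7 (0.945). With 6 samples from the same libraries such values are common. For Tlr3 86 genes passed an r of 0.9, and for Cd14 5 did. Cyth4, at 1400 to 1468 CPM in 2 wild-type samples and 1172 in the other, was at 1785 to 1968 CPM in knockout.

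The other genes of the pathway were taken by role, 120 in all, of which 119 had an entry and 91 were tested. None of the 91 was called by edgeR, by limma-voom or by DESeq2 at an adjusted p under 0.05, and at an unadjusted p under 0.05 edgeR had 2 higher and 4 lower, 6 in all. Of the 91, 46 had a positive log2 fold change and 45 a negative one, with a median of 0.04. All samples of a genotype lay on one side for 14 genes, 7 higher and 7 lower in knockout, beside 5.97% and 5.19% of all tested genes. The values below are given with means ± SD in CPM, wild type first.

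**Figure D4:**
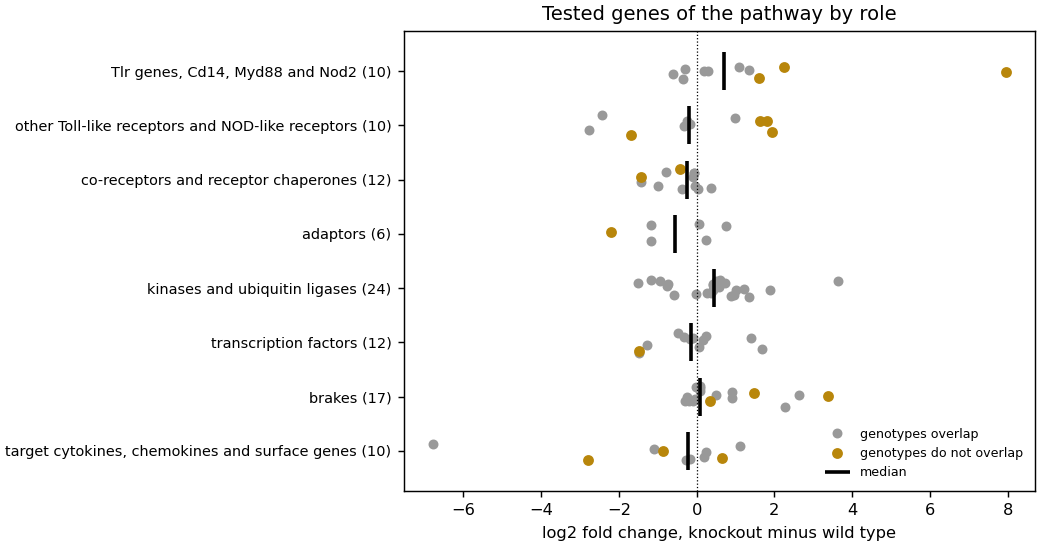
Log2 fold change, knockout minus wild type, of each tested gene by role, with the number tested in brackets, a black line at the median of each group and ochre points for genes whose genotypes do not overlap. Kinases and ubiquitin ligases have a median of 0.46 and adaptors one of -0.55, and points of every role lie on both sides of 0.

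Of the other Toll-like and NOD-like receptors 4 of 10 tested were higher and 6 lower, and 0 higher and 1 lower passed an unadjusted p under 0.05. That gene was Naip5, a sensor of bacterial flagellin, at 114 ± 54.4 and 35.2 ± 6.97 CPM. Lying the other way without overlap were Nlrp1b, an inflammasome sensor cleaved by anthrax lethal factor, at 10.7 ± 1.80 and 41.1 ± 15.1 CPM, Naip2, a sensor of bacterial secretion rods, at 17.9 ± 12.1 and 63.1 ± 24.6 CPM, and the inflammasome sensor Nlrp3 at 15.5 ± 13.5 and 47.7 ± 15.5 CPM. The Naip and Nlrp1 genes have close copies beside them, so how reads were shared among these is uncertain. Tlr6, the second partner of Tlr2, was at 44.3, 157 and 44.6 CPM in wild-type samples and 6.34, 124 and 68.2 CPM in knockout samples. Tlr8 had 0 reads in all samples and Tlr11 had 1 read in all.

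Among 12 tested co-receptors and receptor chaperones 10 were lower and 2 higher, with a median of -0.24, and 2 of the lower ones passed the unadjusted threshold. Ly96 was at 162 ± 80.5 and 60.5 ± 24.3 CPM, a log2 fold change of -1.43 with a standard error of 0.56. Ly86, the partner of the Tlr4-like protein Cd180, was at 2197 ± 214 and 1647 ± 149 CPM, while Cd180 overlapped at 106 ± 23.4 and 99.5 ± 41.3 CPM. Ap3b1, which sorts Toll-like receptors between endosomes, overlapped at 133 ± 76.4 and 66.7 ± 41.2 CPM. The chaperone Unc93b1, which carries the endosomal receptors out of the endoplasmic reticulum, overlapped at 2088 ± 303 and 1998 ± 214 CPM, as did Cnpy3 at 341 ± 31.9 and 351 ± 9.54 CPM.

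Adaptors were split 3 to 3 of 6, and none passed an unadjusted p under 0.05. Tirap, which brings Myd88 to Tlr2 and Tlr4, was lower without overlap, at 52.4, 147 and 36.7 CPM in wild-type samples and 32.3, 0.152 and 19.0 CPM in knockout samples. Ticam1, the Tlr3 adaptor TRIF, ran from 0.0397 to 123 CPM in wild type and from 0 to 45.5 CPM in knockout, and Pik3ap1 was at 91.0 ± 55.6 and 155 ± 36.5 CPM. Of 24 kinases and ubiquitin ligases 17 were higher and 7 lower, again with none at an unadjusted p under 0.05 and none without overlap. Traf3, a ubiquitin ligase of the interferon branch, was at 140.4 CPM in knockout sample 2 and at 0.441 to 18.2 CPM elsewhere. The linear ubiquitin ligase subunits Sharpin and Rbck1 lay in opposite directions, at 57.5 ± 29.6 and 112 ± 41.4 CPM and at 199.6 ± 43.1 and 118 ± 67.3 CPM.

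Transcription factors of the pathway were split 5 higher to 7 lower of 12. Irf5, which drives cytokine genes below Myd88, was at 828 ± 205 and 590.1 ± 68.8 CPM with overlap. The NF-kB subunit Relb was lower without overlap, at 54.9 ± 13.4 and 19.6 ± 21.5 CPM, and Rel overlapped at 86.9 ± 85.5 and 36.1 ± 22.7 CPM. Of 17 tested brakes on the pathway 11 were higher and 6 lower, and 1 higher gene, the cytokine-signal inhibitor Socs3, passed an unadjusted p under 0.05. Socs3 was at 76.3, 59.7 and 113 CPM in wild-type samples and 319, 207 and 159.6 CPM in knockout samples. Zfp36, which destabilises cytokine transcripts, was at 1257 ± 46.1 and 1606 ± 254 CPM and was without overlap, and the phosphatase Dusp1 overlapped at 549 ± 218 and 1037 ± 541 CPM. Tnfaip3, which encodes the ubiquitin editor A20 and is named after its values were seen, was at 1.76, 0.0397 and 26.4 CPM in wild-type samples and 151, 74.6 and 66.0 CPM in knockout samples. Socs3, Zfp36 and Dusp1 are also immediate-early genes, and all 3 had their lowest knockout value in sample 3.

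Target genes were mostly silent. Of 26 cytokine, chemokine and surface genes 8 had no read in any sample, among them Nos2, Ptgs2 and Ifnb1, and 10 were tested, 4 higher and 6 lower. Tnf was at 44.9, 68.6 and 28.7 CPM in wild-type samples and 5.90, 2.39 and 12.2 CPM in knockout samples, and the chemokine Ccl12 at 200.4, 158 and 214 against 117, 114 and 83.7 CPM, both lower without overlap. The adhesion molecule Icam1 was higher without overlap, at 226, 180.2 and 194 CPM against 348, 263 and 338 CPM. In edgeR's test none of these 3 differences passed an adjusted p of 0.05. The other tested targets overlapped between genotypes. Among them were Cd86 at 525 ± 120 and 471 ± 121 CPM and Ccl3 at 345 ± 103 and 288 ± 125 CPM. Il1a was at 228 ± 108 and 262 ± 84.6 CPM, and Ccl4 at 141 ± 64.7 and 166 ± 110 CPM. Il6, named after its values were seen, was at 0.176, 39.8 and 24.0 CPM in wild-type samples and at 0, 0 and 0.556 CPM in knockout, with wild-type sample 1 as low as the knockout samples.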

How the data were processed

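Polyadenylated RNA of sorted microglia was made into cDNA from 0.3 to 1 ng of total RNA with 14 or 15 PCR cycles, then into Nextera XT libraries read over 50 cycles, per the labels' protocols. Amplification without molecular tags counts PCR copies separately, so intervals cover counting error only. The authors deposited raw read counts per gene symbol. Named in the submitters' processing notes are STAR 2.5.2b, featureCounts 1.5.1 of Subread, CASAVA 1.8.2, limma 3.28.21 and GRCm38. For annotation and strand setting, the sources used here give nothing. Of 120 listed pathway genes Tasl had no entry by that name. The 92 spike-in entries were left out.

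In R 4.3.3, edgeR 4.0.16 filterByExpr (minimum count 10, minimum total 15), TMM scaling and the quasi-likelihood F test (2-sided, legacy dispersions, genotype alone) were run, with Benjamini-Hochberg adjustment over all tested genes. Standard errors follow from the F statistic. The test was checked on simulated data, where it recovered the direction and size of set folds at a small dispersion and made almost no calls at a larger one that was still below that of these samples. Lengths and overlaps come from GENCODE M21 (GRCm38). Alternatives used limma-voom 3.58.1, DESeq2 1.42.0, other scalings, filters and sample sets.

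The 10 genes and all lists were chosen with earlier results of these data known. Named genes are the 10, up to 3 genes of each role with the smallest p, the nearest pattern of each of the 10 at 20 CPM or more, the microglia markers, the most abundant gene of each other marker list, Lyl1 and Xist. Markers at or near 0 are named beside them. The nearest pattern had to have a proper symbol and 50 CPM or more. A few more were named for comparison with their values known: Nlrp3, Tlr6, Tlr8, Tlr11, Nod1, Ripk2, Cd180, Unc93b1, Cnpy3 and 3 silent targets. So were Kdm5d, Xcr1, Pf4, Ms4a7, Cd86, Ccl3, Il1a and Ccl4. The split by genes detected was added after seeing the data.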

Additional observations from a re-analysis of the deposited data

How the results depend on the processing

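All 17 alternative settings, and 2 more added after the data were seen, gave a value for every gene, except for Tlr9, which a filter of 5 CPM removed. Of 10394 genes 0 were called in the reported fit. With no minimum count edgeR called 8, DESeq2 called 52 of the genes edgeR tested and 137 of all genes with a read, and the other settings called 0. No pathway gene was called in any setting. The 10 genes kept 3 negative fold changes in all settings but 2, with 2 without wild-type sample 1 and 4 among the samples with the fewest genes detected. Tlr7 turned to -0.80 among the samples with the fewest genes detected. Leaving out 1 sample at a time, Myd88 ran from -0.675 to 0.0803, and the cause was not tested. The other 8 genes kept their direction. Replicate numbers are shared by the genotypes but did not pair the samples. Deviations of same-numbered samples correlated at 0.0144, -0.00288 and 0.0327 across genes, which are not independent, and not every sample correlated best with its own number. With the replicate block edgeR again called 0 genes, and 98 higher and 73 lower genes had an unadjusted p under 0.05. Over the settings, pathway genes at an unadjusted p under 0.05 ran from 0 to 6 higher and from 0 to 6 lower. The common biological coefficient of variation was 1.27, and depth limits values near 3 reads. Upper-quartile scaling moved the median of all genes from -0.03 to 0.09 and left 3 of the 10 genes negative.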

Other observations

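The pattern of Nod2, with 3 reads or fewer in every wild-type sample and 100 or more in every knockout sample, was shared by 9 other genes of the table, named here after their values were seen. They were Caprin2, Fancb, Habp4, Ift122, Nup155, Pgap3, Smtn, Tspyl3 and Zfp788, so the group of 10 held no second innate immune receptor. The reverse pattern was found for 3 genes, Def8, Immp2l and Slc25a32. Samples with almost no reads were common at this level in general. Of 6393 genes with a mean of 10 to 100 CPM, 2338 (36.6%) had 3 reads or fewer in at least 1 of the 6 samples. Log2 levels of tested genes correlated across genes at 0.531 to 0.655 between wild-type samples and at 0.637 to 0.746 between knockout samples.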
